A study of Homo sapiens with 14 samples.

Results

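Noncoding-only promoters are described here, that is, promoters of genes without a protein product at which no promoter of a protein-coding gene lies, and at which ZNF143 ChIP-seq peaks were called both with and without degradation of ZNF143. The peaks of both lists were merged where they overlapped by at least 1 bp. A merged region was kept when it held peaks of both lists and its centre lay in the promoter window of a noncoding gene, 2 kb before to 1 kb after a transcription start site (TSS), and in no such window of a protein-coding gene (GENCODE release 44, hg38). This left 937 regions of 14794 shared regions and of 40687 merged regions in all. The regions were chosen by measured values, namely the presence of a peak in each list, so that the presence, the scores and the ranks of these peaks are given as a description only. A further 315 regions at noncoding-only promoters were found only in the untreated list and 1122 only in the dTAG-V1 list. The lists themselves differ in length, with 20429 peaks untreated and 35287 with dTAG-V1, and 14794 of all 40687 merged regions were shared. These counts are therefore not read as a result about noncoding promoters.

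The cells were HEK293T, an established human embryonic kidney line, in a derivative clone named ZD29 in which ZNF143 carries FKBP12F36V, the tag through which dTAG-V1 directs a protein to degradation. All samples used here carried this tag and came from this single clone. The groups were 4 untreated samples and 4 samples with dTAG-V1 (0.5 µM, 30 min), both precipitated with a polyclonal anti-ZNF143 antibody from Proteintech. The authors deposited 1 list of peaks per condition, with 20429 peaks untreated and 35287 peaks with dTAG-V1. The untreated list names its peaks after DMSO, but its samples are labelled as untreated, and the labels were followed. No value per sample and no read count is in these lists, the depth is unknown, and no difference between conditions was tested. The other samples of the series, 3 untreated and 3 with dTAG-V1 precipitated for CTCF, were not analysed here.

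ZNF143 is a zinc finger protein first known as an activator of the genes of small nuclear RNAs (snRNAs), the RNA parts of the spliceosome, and of selenocysteine tRNA. It binds a long sequence, the SBS, which has a short and an extended form called SBS2 and SBS1. In snRNA genes and in the type 3 genes of RNA polymerase III, whose promoters lie entirely upstream of the TSS, the SBS and an octamer bound by POU2F1 form a distal element, and SNAPC binds a proximal element closer to the TSS. CTCF, the zinc finger protein found at loop anchors and boundaries, binds a different sequence, and both are therefore given for each region. The paper reports that the Proteintech antibody also cross-reacts with CTCF. Peaks are thus called ZNF143 peaks after their label, and which protein lay at a region was not tested.

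The sites that follow are printed because they show the SBS in regions that ranked high, the first 5 of them at lncRNA and pseudogene promoters, the next 2 at snoRNA host genes and the last 4 at small RNA genes. Each runs 5′ to 3′ on the strand of the hit in hg38, and capitals mark bases equal to the letter that at least 60% of the learned sites hold at that position. The first 7 are matches to SBS1 (19 bp) and the others to SBS2 (18 bp).
ENSG00000291177: ACTACAacTCCCAGcataC
ENSG00000287001: ACTACAtTTCCCAGaaacC
ENSG00000291159: ACTACAtTTCCCAGaggcC
ZNF37BP: ACTACAtTTCCCAGaagtC
THA1P: ACTACAacTCCCAGcgtgC
SNHG12: ACTACAacTCCCAGgcagC
SNHG16: ACTACAtTTCCCAccagcC
RNU5D-1: TaCCCAcaaTgCacTGCa
RNU4-1: cTCCCAtagTgCttTGCt
RNY1: TTCCCAGgaTgCttaGCa
SNORD118: TTCCCAGaaTgCtccGat
The site of ENSG00000291177 lies at chr19:19776508-19776526 on the plus strand, −44 bp from the TSS, and that of SNHG16 at chr17:76557681-76557699 on the plus strand, −45 bp from the TSS. The site of RNY1 lies at chr7:148987444-148987461 on the minus strand, −205 bp from the TSS. The sites were picked as close matches, and less close ones under other high-ranking regions are not printed, among them those of ENSG00000269388, ENSG00000283341 and ENSG00000290993.

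Whole promoters of an snRNA gene, a type 3 gene and a snoRNA host gene show how these sites sit against the TSS. Each holds 300 bases of hg38, from 250 bases before the TSS to 50 bases from it onward, on the strand of the gene. Capitals mark the SBS hit. The promoter of RNU4-1, a gene of the U4 snRNA, is chr12:120293188-120293487 (minus strand). The promoter of RNY1, whose Y RNA binds the Ro60 protein, is chr7:148987199-148987498 (minus strand). The promoter of SNHG16, whose introns carry snoRNAs, is chr17:76557485-76557784 (plus strand).
RNU4-1: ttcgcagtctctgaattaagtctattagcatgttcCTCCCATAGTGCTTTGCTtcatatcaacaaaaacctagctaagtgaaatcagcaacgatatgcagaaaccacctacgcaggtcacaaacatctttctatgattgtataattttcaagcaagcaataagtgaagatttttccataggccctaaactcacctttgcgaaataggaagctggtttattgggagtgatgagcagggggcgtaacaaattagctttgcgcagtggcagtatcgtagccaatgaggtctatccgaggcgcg
RNY1: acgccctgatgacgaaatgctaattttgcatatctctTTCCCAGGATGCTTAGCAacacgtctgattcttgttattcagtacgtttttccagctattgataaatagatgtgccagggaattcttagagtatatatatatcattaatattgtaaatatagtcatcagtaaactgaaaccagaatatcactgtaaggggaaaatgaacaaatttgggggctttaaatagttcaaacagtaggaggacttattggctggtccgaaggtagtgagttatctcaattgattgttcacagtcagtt
SNHG16: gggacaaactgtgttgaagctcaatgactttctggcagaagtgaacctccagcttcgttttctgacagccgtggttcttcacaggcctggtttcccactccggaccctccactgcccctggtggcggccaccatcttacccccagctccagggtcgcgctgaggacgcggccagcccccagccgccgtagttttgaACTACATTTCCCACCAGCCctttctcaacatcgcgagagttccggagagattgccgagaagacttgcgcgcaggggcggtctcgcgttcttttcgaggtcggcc
In both small RNA promoters the SBS stands far upstream of the TSS, and in SNHG16 it stands close to it.

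By the type of the gene whose TSS was nearest, 704 regions fell to lncRNA genes, 114 to pseudogenes, 103 to small RNA genes and 16 to entries that await experimental confirmation of their type (TEC). The small RNA regions comprised 50 snRNA, 27 misc_RNA (a type that includes Y and vault RNAs), 18 miRNA, 7 snoRNA and 1 scaRNA regions. The pseudogene regions included 58 at processed pseudogenes, which are copies made through RNA, and 35 at pseudogenes annotated as transcribed. The windows of 207 regions held several noncoding genes, and those of 121 held genes of several of these classes, so that the class is that of the nearest gene only. In all, 898 genes were nearest to a region. They made up 3.56% of the 18756 annotated lncRNA genes, 1.45% of the 7015 small RNA genes and 0.762% of the 14835 pseudogenes. The median width of the regions was 655 bp, and 77.7% of them lay outside protein-coding genes, 19.6% in an intron and 2.7% in an exon of one. Some lay close to a protein-coding promoter even so, with 15.4% within 5 kb of a protein-coding TSS, but the median distance was 22620 bp. Just inside the edges of the window lay the regions of HOXC-AS1 at −1989 bp, with scores of 106 untreated and 90 with dTAG-V1, and of ENSG00000253190 at 986 bp, with scores of 38 and 124. Just outside lay the shared regions of ENSG00000289551 at −2003 bp, with scores of 213 and 92, and of SNHG27 at 1009 bp, with scores of 70 and 113.

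Where the summit of the untreated peak fell against the TSS, a value that the rule bounds but does not set, differed between gene types. A summit within 200 bp of the TSS was found in 388 of the 937 regions (41.4%, 95% Wilson interval 38.3 to 44.6%). The TSS was that of any annotated transcript, so that a gene with many annotated starts can have a close one more readily. With gene 5′ ends only, which also changes the regions, the share was 38.2%, and the gene types were not compared again. All intervals given here cover counting error only, and regions are not replicates of a condition. At lncRNA genes the share was 45.6% (321 of 704) and at pseudogenes 21.9% (25 of 114), and the difference of 23.7 percentage points had a 95% Newcombe interval of 14.5 to 31.2. Transcribed pseudogenes stood at 40.0% (14 of 35) and other pseudogenes at 13.9% (11 of 79). Among small RNA genes, the 33 regions at the genes on the lists of snRNA, type 3, signal recognition particle and box C/D RNA genes had 28 summits this close (84.8%). The other 70 small RNA regions had 11 (15.7%). At shared protein-coding promoters the share was 61.3%, and the noncoding-only regions differed from it by −19.9 points (−23.2 to −16.5). Checked in this way, the label of a promoter held for most listed small RNA genes. It held for fewer lncRNA regions than not, with 321 summits within 200 bp of the TSS and 383 farther away. For processed pseudogenes (13.8%, median summit at −703 bp) and for small RNA genes outside the lists, the peak mostly lay elsewhere in the window.

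**Figure D1:**
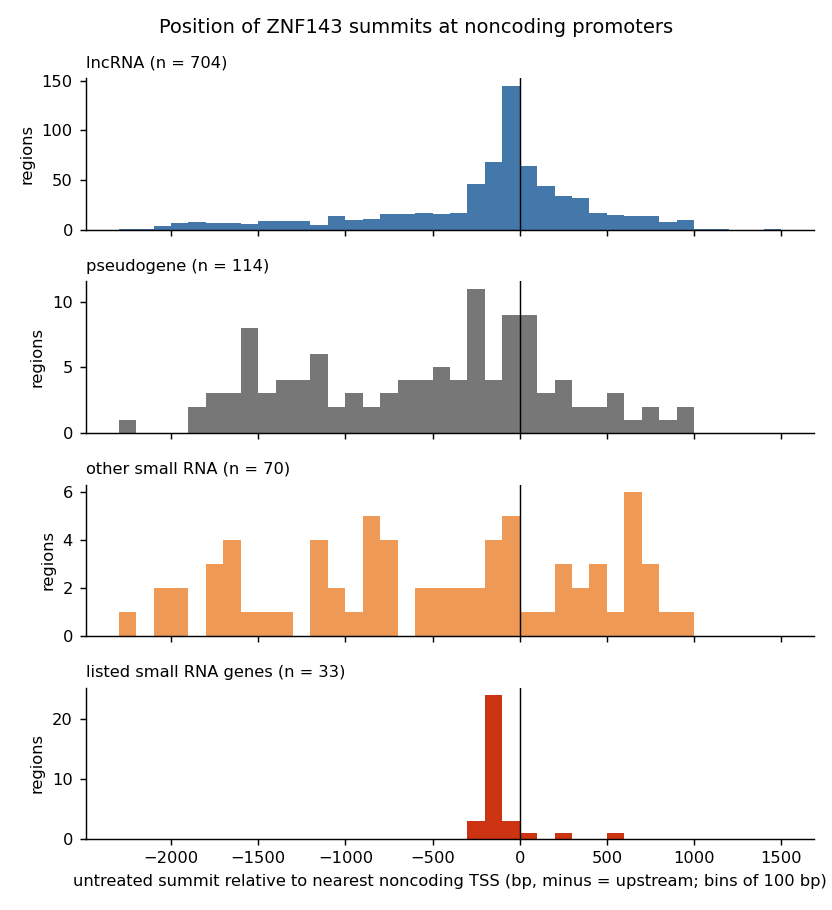
Position of the untreated summit relative to the nearest noncoding TSS, in bp, for the lncRNA, pseudogene, listed small RNA and other small RNA regions, with negative values upstream and bars counting regions in bins of 100 bp. The listed small RNA genes gather around −160 bp (interquartile range −175 to −125 bp), the lncRNA genes around −64.5 bp, and the pseudogenes are spread with a median of −376.5 bp.

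The SBS was found in 36.9% of the 937 regions (346 regions, 33.9 to 40.1%) beside 35.6% of all shared regions, and the CTCF motif in 30.4% (27.6 to 33.4%) beside 25.8%. A motif was counted where a hit at p 1e-05 overlapped the region, and in flanks 1 kb from the regions the shares were 18.7% and 8.8%. Of the regions, 262 held the SBS alone, 201 the CTCF motif alone, 84 both and 390 neither. Neither motif was thus the most frequent outcome at p 1e-05. At p 5e-05 the SBS was found in 65.4% and the CTCF motif in 49.5% of the regions, so that this count depends on the threshold. The share with neither motif was not taken over all shared regions, and the count is a description only. The SBS was found at 39.2% of lncRNA, 34.2% of pseudogene and 26.2% of small RNA regions. The share at small RNA genes differed from that at lncRNA genes by −13.0 points (−21.4 to −3.10), an interval that included 0 under 7 of the alternative settings. Between lncRNA and pseudogene regions the SBS share differed by 4.99 points (−4.77 to 13.9) and the CTCF share by −8.01 points (−17.7 to 0.975), both intervals including 0. Other thresholds changed this, with an SBS difference of 12.04 points (2.60 to 21.8) at p 5e-05 and a CTCF difference of −10.4 points (−19.4 to −2.74) at p 1e-06. In windows of equal length, the 300-base promoters, the SBS was found in 21.6% of the lncRNA genes nearest to a region and 12.9% of all lncRNA genes, in 18.6% and 8.22% of the pseudogenes, and in 12.7% and 7.11% of the small RNA genes.

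Against shared regions at protein-coding promoters, the noncoding-only regions held the SBS less often, with 36.9% against 49.4% and a difference of −12.5 points (−15.8 to −9.13). They held the CTCF motif more often, with 30.4% against 22.1% and a difference of 8.34 points (5.29 to 11.5). With hits at p 5e-05 the CTCF difference was 2.74 points (−0.676 to 6.17), an interval that includes 0. GC content moved with this comparison, with a median of 51.5% in the noncoding-only regions and 59% in the coding ones within 100 bp of the centre. Within bands of GC content, a split chosen after the data had been seen, the SBS difference was −4.16, −4.72, −7.09 and −6.80 points from the lowest band (below 45%) to the highest (65% and above), and only the third band (55 to 65%) had an interval without 0. The CTCF difference within the same bands was 5.83, 15.4, 10.3 and 8.55 points, and the interval included 0 only in the highest band. Against shared regions away from all promoters, the SBS was 13.2 points more frequent (10.1 to 16.5), whereas the CTCF share differed by 1.97 points (−1.07 to 5.16). These 2 differences were not taken within bands of GC content.

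**Figure D2:**
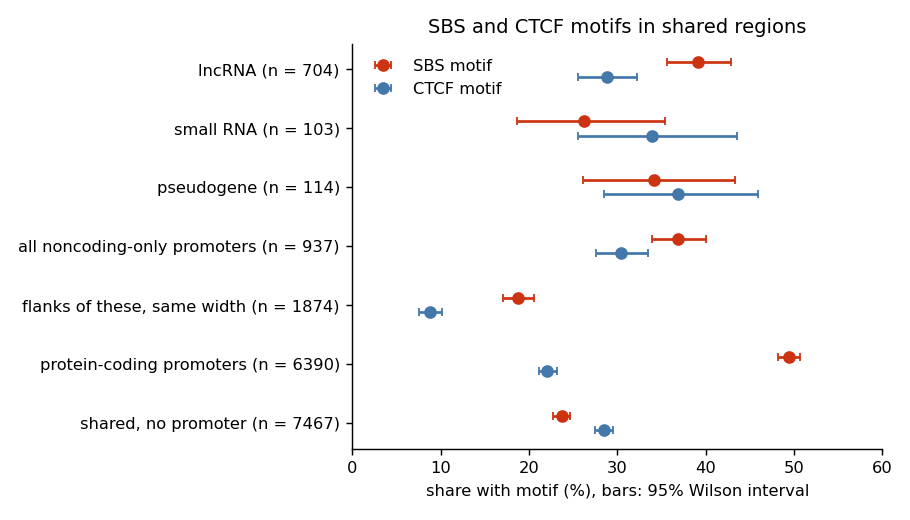
Share of regions, in percent, with the SBS and with the CTCF motif for the noncoding-only regions, their gene classes, their flanks of the same width and the other shared regions, with 95% Wilson intervals as bars. The lncRNA regions (39.2%) lie between the coding promoters (49.4%) and the regions elsewhere (23.7%) for the SBS.

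The SBS hits had no common strand, with 165 of 346 (47.7%) on the strand of the gene, and more of the best hits were SBS2 (224) than SBS1 (122). Their median position was −61.5 bp from the TSS at lncRNA genes, −208 bp at small RNA genes and −303 bp at pseudogenes. At the listed small RNA genes the picture was narrower, though it rests on 11 regions. All 11 best hits were SBS2, 8 of them were on the strand of the gene, and 6 lay 150 to 250 bp upstream of the TSS, of which 5 were on the strand of the gene. At lncRNA genes, regions with a summit within 200 bp of the TSS held the SBS in 44.6% and those with a farther summit in 34.7%, a difference of 9.82 points (2.58 to 16.97). For the CTCF motif this difference was −1.47 points (−8.10 to 5.27), an interval that includes 0.

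The strength of a peak was read as its rank by score within its own list, since scores are on the scale of each list, and the ranks are a description because both lists chose the regions. The score is the integer that MACS2 derives from the q-value. In the top decile of the untreated list lay 113 of the 937 regions (12.1%), beside 13.7% of all shared regions, 24.7% of those at protein-coding promoters and 4.55% of those elsewhere. In the dTAG-V1 list the highest decile held 199 regions (21.2%), beside 23.5% of all shared regions, and 109 regions were in the highest decile of both. The 33 listed small RNA regions ranked far above the rest, with 22 in the highest decile untreated and 28 with dTAG-V1. Of the 70 other small RNA regions, 6 and 14 were there. The lncRNA regions had 11.1% and 19.03% and the pseudogene regions 5.26% and 16.7% in the highest decile of the untreated and the dTAG-V1 list.

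Motif content differed along the ranks, and not in the same way in both lists. Because the SBS was learned at untreated summits and the CTCF motif at dTAG-V1 summits, the contrast between the lists is a description only. In the top decile of the untreated list, 83.2% of the noncoding-only regions held the SBS (94 of 113), in the next decile 66.0%, and in the lowest decile 7.81% (5 of 64). The CTCF motif ran the other way but unevenly, with 19.5% in the highest, 28.6% in the ninth and 45.3% in the lowest decile. In the dTAG-V1 list the SBS was found in 59.8% of the regions of the highest decile and in 30.1% of the next, and from there to the ninth decile it stayed between 22.1% and 35.8%. The CTCF motif was found in 24.1% of the highest and 44.6% of the second decile of that list and in 11.9% of the ninth, so that it was less frequent toward the end of the dTAG-V1 list and more frequent toward the end of the untreated list. The lowest dTAG-V1 decile, with 18 regions, held the SBS in 50.0% and the CTCF motif in 16.7%. Regions with the SBS alone had a median rank at 19.1% of the untreated list and 23.2% of the dTAG-V1 list. For regions with the CTCF motif alone these were 67.0% and 26.4%, and for regions with neither motif 55.5% and 39.3%. The dTAG-V1 list is longer, so that the same rank number is a smaller percentage there. Among regions of the highest untreated decile, the SBS was less frequent at noncoding-only than at protein-coding promoters, 83.2% against 95.2% (difference −12.01 points, −20.02 to −6.11). The lower share lay in the small RNA regions, with 50.0% of 28 holding the SBS (40.9% of the 22 listed ones), against 93.6% of 78 lncRNA and 6 of 6 pseudogene regions.

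**Figure D3:**
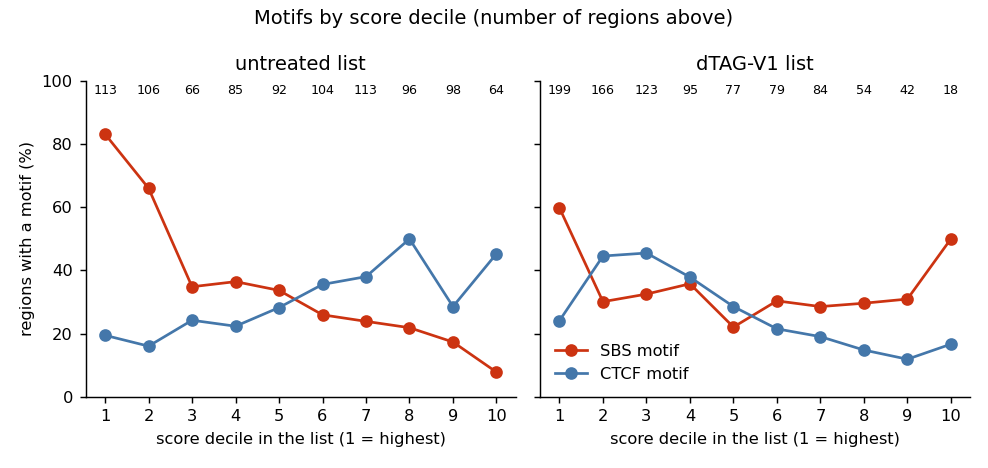
Share of the noncoding-only regions with the SBS and with the CTCF motif, in percent, by decile of the score within the untreated and the dTAG-V1 list, with decile 1 the highest. The SBS share falls from 83.2% to 7.81% along the untreated list; the lowest decile of the dTAG-V1 list holds only 18 regions.

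Of the snRNA genes of RNA polymerase II, 24 of 44 listed genes were nearest to a region. Of the others, 3 lay in the window of a region with another gene nearer, 6 had a shared region that also lay at a protein-coding promoter, and 11 had no region. RNU5B-1, a gene of the U5 snRNA, had the highest untreated score of all small RNA regions, at rank 320 untreated (score 85666) and rank 251 with dTAG-V1 (score 33690). The genes of the U4 snRNA followed, with RNU4-2 at ranks 611 and 267 and RNU4-1 at 815 and 585, and the U5 genes RNU5D-1 and RNU5A-1 were at 689 and 484 and at 829 and 729. All of these summits lay between −172 and −151 bp from the TSS. The U1 genes and their variants (RNU1 and RNVU1) made up 19 of the 24 regions, 18 of them on chromosome 1. Their ranks ran from 708 (RNVU1-8) to 7485 (RNVU1-23) untreated, and 11 of 19 held neither motif, with 3 holding the SBS. This count depends on the threshold of the hits. At p 5e-05, 13 of 19 held an SBS hit, 11 of them within 350 bp upstream of the TSS, beside 65.4% of all 937 regions with a hit at that threshold. Summits of these 19 regions lay between −222 and −28 bp from the TSS, with a median of −167 bp. As near-identical copies, U1 genes can share reads, and the filter on mapping quality removes reads that fit several copies, so that their ranks and the missing copies among the 11 genes without a region are uncertain.

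On the list of type 3 genes of RNA polymerase III, which also holds vault RNA genes, 7 of 16 genes were nearest to a region. Of the others, 5 had a shared region at a protein-coding promoter, 2 lay in the window of a region with another gene nearer and 2 had no region. The Y RNA genes RNY1 (ranks 323 and 67), RNY4 (347 and 248) and RNY3 (751 and 876), which lie together on chromosome 7, and the U6 snRNA genes RNU6-1 (628 and 104) and RNU6-8 (804 and 244) stood high in both lists. RNY1 had the best dTAG-V1 rank of all 937 regions, with a score of 85323 untreated and 63810 with dTAG-V1. Of the 7 regions, 3 held the SBS and 3 held neither motif. RNU6-1 and RNY4, though high in rank, had no SBS hit, also at p 5e-05. The vault RNA genes VTRNA1-2 (15079 and 7058) and VTRNA1-3 (16006 and 13849) ranked low, with summits downstream of the TSS, at 212 and 90 bp. Both held neither motif. Unlike the other 5, these genes have promoter elements within the transcribed part, and they are counted as type 3 here only because the list includes them. RN7SL2, a gene of the RNA of the signal recognition particle, was at ranks 7274 and 3143 with a CTCF hit only and a summit at 587 bp. SNORD118, the gene of the U8 snoRNA that acts in processing of ribosomal RNA, was at 1088 and 868 with both motifs.

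Small RNA genes outside the lists reached similar ranks in a few cases. SCARNA2, a gene of an RNA of the Cajal body, was at ranks 587 and 456 with both motifs and a summit at −74 bp. RNU5E-6P, an entry of the U5 family, was at 603 and 461 with neither motif and a summit at −162 bp. The region of RNU5E-6P is thus placed like those of the listed snRNA genes. The miRNA regions had a summit within 200 bp of the annotated start in 1 of 18 regions. This compares with 15.7% of all small RNA regions outside the lists and 41.4% of all 937 regions. The CTCF motif was found in 8 of 18 (24.6 to 66.3%), an interval that covers the 30.4% of all regions. The SBS was found in 6 of 18. The annotated start of a miRNA gene is that of the hairpin and not of its primary transcript.

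**Figure D4:**
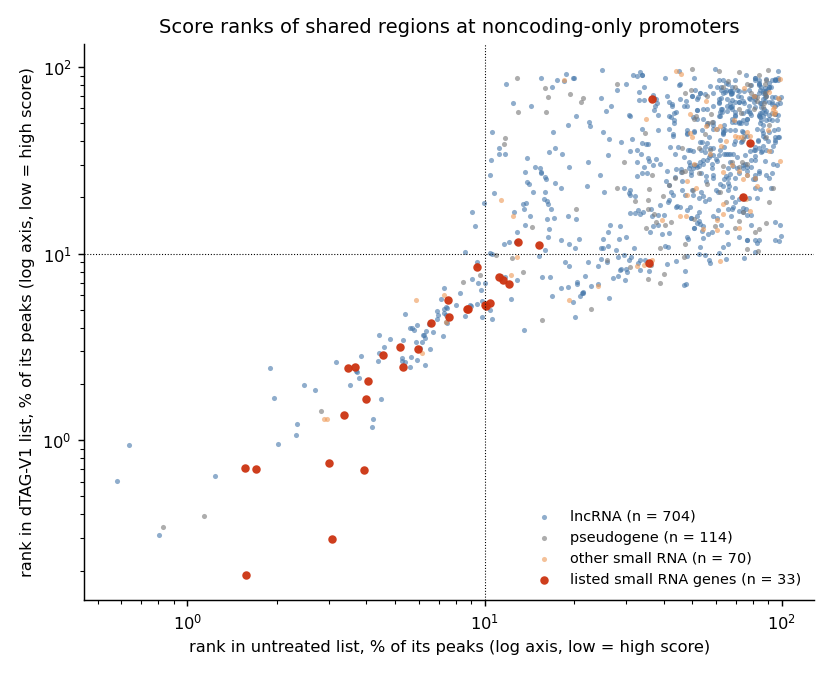
Rank in the untreated list against rank in the dTAG-V1 list, both as a percentage of the list on log axes, for the lncRNA, pseudogene and small RNA regions, with the 33 at listed small RNA genes marked. RNY1 is the lowest point on the dTAG-V1 axis (rank 67), whereas VTRNA1-2, VTRNA1-3, RNVU1-23 and RN7SL2 lie apart from the other listed genes.

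The octamer, searched as the 8 letters ATTTGCAT on both strands, was found in 49 of the 937 regions (5.23%). It was in 2.55% of the shared coding promoters and 3.96% of the shared regions elsewhere. At small RNA regions the share was 14.6%, at snRNA regions 24.0% (12 of 50) and at small RNA regions with a summit within 200 bp of the TSS 30.8% (12 of 39). In 300-base promoters, which are shorter than most regions, it was found in 11.8% of the small RNA genes nearest to a region (12 of 102) and in 2.54% of all small RNA genes. It was found in 3 of 5 listed snRNA regions other than RNU1 and RNVU1, in 3 of 7 regions of the type 3 list and in 0 of 19 RNU1 and RNVU1 regions. All listed small RNA regions together held the octamer in 18.2% (6 of 33) and the other small RNA regions in 12.9% (9 of 70). The difference of 5.325 points (−8.38 to 22.6) had an interval that includes 0. As the octamer word tolerates no mismatch, variant octamers are not counted. The word ACTTCCGG, a core of sites for ETS factors at promoters of housekeeping genes, was found in 4.38% of the regions. It was in 12.7% of the shared coding promoters, a difference of −8.32 points (−9.73 to −6.61). In the shared regions elsewhere it was in 0.656%, a difference of 3.72 points (2.57 to 5.23). Neither difference was taken within bands of GC content. At lncRNA regions the word was in 5.40%. In 300-base promoters it was found in 3.15% of the lncRNA genes nearest to a region and in 1.63% of all lncRNA genes.

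Among lncRNA genes, the strongest regions belonged to genes with an identifier only. ENSG00000291177 was at ranks 119 and 213 (scores 128397 and 37187), ENSG00000283341 at 130 and 332, ENSG00000287001 at 164 and 109, ENSG00000291159 at 254 and 228, and ENSG00000290993 at 388 and 859. All of these held the SBS and not the CTCF motif. The first 4 summits lay between −62 and −22 bp from the TSS and that of ENSG00000290993 at 179 bp. Genes with an identifier only made up 372 of the 704 lncRNA regions, LINC genes 133 and genes named as antisense 83. LINC regions lay outside protein-coding genes in 96.2%, and antisense regions in an intron of one in 53.0% (44 of 83). The antisense regions held the SBS in 30.1% (21.3 to 40.7%), the LINC regions in 39.1% (31.2 to 47.6%).

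The snoRNA host genes, whose spliced introns release snoRNAs, had 13 regions at 12 of 29 listed genes, and a further 9 genes had a shared region at a protein-coding promoter. SNHG12 (ranks 475 and 376), SNHG16 (478 and 433), SNHG29 (759 and 820) and SNHG32 (1511 and 1654) were in the highest decile of both lists. All 4 held the SBS, between −85 and −17 bp from the TSS. SNHG17 (4183 and 2432) and SNHG11 (5048 and 3304) followed, and SNHG7 ranked last (19757 and 30820). Of the 13 regions, 7 held the SBS, 1 also the CTCF motif and 6 neither, and 11 summits lay within 200 bp of the TSS. The host genes of miRNAs, 21 regions at 15 of 84 genes, differed in this, with 4 of 21 summits within 200 bp of the TSS and 0 of 21 regions in the highest untreated decile. The SBS was found in 11 of these 21. MIR99AHG was nearest to 4 regions, the strongest at ranks 2137 and 9310 with its summit at −1340 bp, on the SBS. MIR17HG, the host of a miRNA cluster known for its role in cancer, had a region at ranks 3847 and 32508, with scores of 1026 untreated and 37 with dTAG-V1. It stood in the upper part of the untreated list and near the end of the dTAG-V1 list. MIR762HG was at 3692 and 2317.

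Of 20 well-known lncRNA genes on the list, 7 were nearest to a region, with 8 regions in all, and 8 genes had no region. DLEU1, a gene often deleted in leukaemia, was at ranks 1412 and 1565 with the SBS at −116 bp, and a second region of DLEU1 at 6318 and 5810. EPB41L4A-AS1, which hosts a snoRNA, was at 1489 and 1695 with the SBS at −56 bp. These 2 genes had the only known lncRNA regions in the highest untreated decile. The abundant nuclear RNA MALAT1 was at 6678 and 3157 with neither motif, and its neighbour NEAT1, the scaffold of paraspeckles, at 11004 and 16287 with a CTCF hit. JPX was at 5048 and 3763, PVT1 at 13189 and 25995 and LINC-PINT at 16623 and 29880, all with neither motif. TERC, the RNA template of telomerase, had a region at 6776 and 23421 with an SBS hit at 22 bp.

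**Figure D5:**
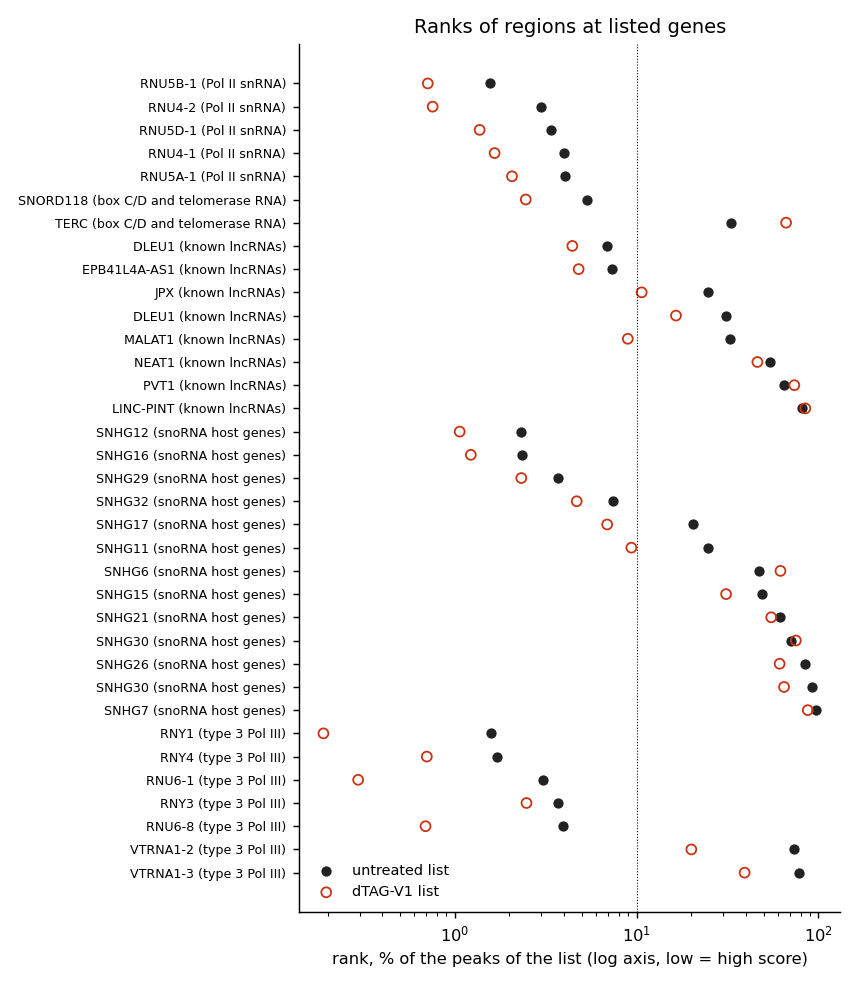
Ranks in both lists, as a percentage of the list on a log axis, of the regions nearest to listed snRNA genes other than U1, type 3, SNORD118, TERC, snoRNA host and known lncRNA genes, with filled points for the untreated and open points for the dTAG-V1 list. The snoRNA host genes spread from rank 475 to 19757 untreated (median 46.8% of the list), and the vault RNA genes lie apart from the other genes of the type 3 list.

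The pseudogene regions held few strong peaks, with 6 of 114 in the highest untreated decile. ENSG00000269388 (ranks 169 and 121) and ZNF37BP (232 and 138), both transcribed processed pseudogenes by their annotation, and THA1P (576 and 505), a unitary pseudogene, which is a disabled gene without an intact copy, stood highest in both lists. All 3 had SBS1 hits and none a CTCF hit. ENSG00000264289 (1725 and 2473) and TRBV8-1 (1930 and 3049), a T cell receptor pseudogene, had both motifs. Processed pseudogenes held the CTCF motif in 43.1% (25 of 58) and the SBS in 32.8% (19 of 58). Between transcribed and other pseudogenes the SBS share differed by 0.109 points (−17.3 to 19.2), a wide interval around 0.

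The summits of both lists were mostly close together, with a median distance of 34 bp and at most 50 bp in 59.3% of the regions. This held for 64.5% of the regions with the SBS alone, 60.2% with the CTCF motif alone and 55.6% with neither. In the 84 regions with both motifs the summit could lie at either. The untreated summit was nearer the SBS in 49 (58.3%, 47.7 to 68.3%), and 1 was at equal distance. The dTAG-V1 summit was nearer the SBS in 30 (35.7%, 26.3 to 46.4%). From the untreated to the dTAG-V1 list, 22 regions went from nearer the SBS to nearer the CTCF motif and 3 the other way. The SBS was learned at untreated summits and the CTCF motif at dTAG-V1 summits, members included. Nearness of each list's summits to its own motif is thus partly built in, and these counts are a description only. In LINC00491, chosen after its values were seen as were the next 2 genes, the SBS lay 94 bp from the untreated and 873 bp from the dTAG-V1 summit, and the CTCF motif 765 and 14 bp. In ENSG00000253730 the distances were 6 and 423 bp for the SBS and 386 and 31 bp for the CTCF motif, and in LMO7DN-IT1 50 and 399 bp and 394 and 45 bp. As each list has a single summit per peak and no replicate values, the spread of a summit between samples is unknown.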

How the data were processed

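Narrow peaks of ZNF143 ChIP-seq (Proteintech antibody) in hg38 coordinates were used, 1 list for 4 untreated and 1 for 4 dTAG-V1 samples. According to the methods, the authors mapped reads with bwa mem, kept properly paired and confidently mapped reads with SAMtools, removed duplicates with Picard, called peaks with MACS2 without a named control and removed blacklisted regions. They also state that untreated peaks had to occur in each replicate and dTAG-V1 peaks in any. This rule could not be checked from the lists, and whether it bears on their difference in length was not tested. The deposited score is an integer that MACS2 derives from the q-value. The deposited fold enrichment is a ratio at the summit, and the authors' −log10 q-value comes from the same call. These values were ranked within a list only. The lists hold no per-sample columns (0 left unused) and no read counts, so depth is unknown.

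The members and the gene lists were chosen with earlier results of these data known. Regions were merged and annotated with Python 3.11.15, numpy 2.4.6, pandas 2.3.3, numba 0.67.0 and pysam 0.24.0 (samtools 1.23.1, scipy 1.17.1, matplotlib 3.10.9), with GENCODE release 44. The chromosome ends of the reference accommodated all peaks. Matrices for SBS1 and SBS2 were learned within 50 bp of untreated summits, and that for CTCF within 50 bp of dTAG-V1 summits. All used odd-numbered autosomes, members included, with sites at p 1e-06, and hits at p 1e-05 were counted. The learning was changed from whole regions to summit windows after hits in the members had been seen. Of 5 settings, the one used found the SBS at 33.6% of 8571 untreated summits on even-numbered autosomes and at 5.43% of points 1 kb away, whole regions 35.2% and 7.31%. Base frequencies of the summit windows gave 26.4% and 2.19%, lower at both. With sites at p 1e-05 the values were 35.6% and 5.70% with genome base frequencies and 28.7% and 2.2% with those of the summit windows. Before that, 16 SBS and 2 CTCF fits had been looked at by their letters. The search was tested on simulated sequences. Shares have 95% Wilson and differences 95% Newcombe intervals, with no p-value. Named were the regions of listed genes, those with the 5 highest untreated and 3 highest dTAG-V1 scores per class, and those at the window's edges; others are said to be chosen later. Alternatives changed the overlap, peak threshold, TSS set, window, motif threshold and window, matrices and ranking. One promoter sequence is not reported here.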

Additional observations from a re-analysis of the deposited data

How the results depend on the processing

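The number of regions ran from 723 to 1087 across the alternatives. No difference whose interval was free of 0 changed its sign. The SBS difference of lncRNA and pseudogene regions, whose interval included 0, went from 4.99 to −0.890 points with base frequencies of the summit windows. The share with the SBS was 40.4% with at least 50% reciprocal overlap, 65.4% with hits at p 5e-05, 16.1% at p 1e-06 and 19.96% within 100 bp of the centre. With alternatives chosen after seeing the data it was 43.4% with matrices learned in whole regions and 24.7% with base frequencies of the summit windows. The CTCF share was 49.5% at p 5e-05, 16.8% at p 1e-06, 16.1% within 100 bp of the centre and 22.8% with summit-window base frequencies. Against coding promoters, the SBS difference was −6.69 points with summit-window base frequencies, and −4.16, −4.72, −7.09 and −6.80 points in the GC bands from low to high. The CTCF difference was 2.74 points at p 5e-05 (−0.676 to 6.17), 15.4 in the band of 45 to 55% and 8.55 in that of 65% and above. The SBS difference of small RNA and lncRNA regions had an interval including 0 with reciprocal overlap (−11.0), a window of 500 bp each side (−12.2), hits at p 1e-06 (−4.14), hits near the centre (−6.60), without RNU1 and RNVU1 genes (−10.6), on chromosomes not used to learn (−5.96) and with summit-window base frequencies (−6.01), the last 3 chosen after seeing the data. Between lncRNA and pseudogene regions, the SBS difference was 12.04 points at p 5e-05 and the CTCF difference −10.4 at p 1e-06, both without 0. Summits lay within 200 bp in 38.2% with gene 5′ ends only. The highest untreated decile held 15.5% with reciprocal overlap and 15.4% with the narrower window. The cause was not tested in any of these cases. The motif threshold thus sets the level of the shares, and no order of motif shares should be read more finely than these ranges. No paired analysis was possible because the lists hold no replicate columns, and no replicate could be left out for the same reason.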

Other observations

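The neighbouring T cell receptor pseudogenes TRBV8-1 and TRBV8-2 had similar regions, at ranks 1930 and 1976 untreated and 3049 and 2717 with dTAG-V1, both with both motifs. Their summits lay at −609 and −769 bp from the TSS. Among the 16 TEC entries, ENSG00000280211 stood alone, at rank 190 untreated (score 108283) and 1035 with dTAG-V1 (score 8357), with the SBS at 587 bp from the TSS. These genes were chosen after their values were seen.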
